A study of Fundulus heteroclitus with 5 samples.

Results

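The arrays described here are those hybridized with cardiac RNA at 0.1x, 1x and 5x of the concentration usually applied to the Fundulus heteroclitus cDNA array. They were chosen by the concentration in their titles and make up 3 of the 5 arrays of the concentration experiment, which also holds a 10x and a 50x array. Each array carried 384 features, printed as 4 spots each. The authors' table of processed values leaves 172 of them out, and all others, called the listed features, were followed across the 50-fold range of RNA. The 172 unlisted features were used only where stated. Fundulus heteroclitus is a teleost fish of estuaries, and every array has the same labelled source, heart tissue of fish held in the laboratory for several months, which the methods describe as wild-caught. The number of fish behind the RNA is not given in the sources used here. Total RNA was copied into amino allyl RNA by in vitro transcription and coupled to Cy3 or Cy5, and both dyes were read as present at the same level on each array. This pairing was taken from the titles and column headings, whereas the methods describe a loop design for all experiments. The amounts of the dyes were not equal, as the methods list less Cy5 than Cy3 at every level.

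A cDNA array measures a transcript by the light of the dye-labeled RNA that binds to its printed cDNA. Light also comes from the slide, from unbound dye and from labeled RNA bound to the wrong cDNA, and this light adds to every spot. Most cDNAs on this array encode enzymes and carriers of cellular metabolism, such as those of glycolysis, the citrate cycle, fatty acid metabolism and oxidative phosphorylation, the pathways that supply a beating heart with ATP. The files number the features and do not pair the numbers with genes, so no feature could be given a gene name or a pathway, and the labelled tissue could not be checked against heart markers.

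There was 1 array per level. A difference between levels therefore includes any difference between slides, it has no error among replicate arrays, and nothing was tested. The SD given with a value is over the 4 spots of a feature, or over 4 recalculations from 1 spot set each, and covers technical error within an array only. The share of a feature is its mean intensity over the 4 spots as a percentage of the summed intensity of the listed features of that dye and array. For the SD of a median log2 ratio, the spots of each set were divided by this same total of 4-spot means, and not by the total of their own set. Shares of Cy3 and Cy5 were averaged unless a dye is named, and an average feature had a share of 0.472%. A feature was said to gain or lose share where its share at the lower level was above 1.5 times, or below the inverse of 1.5 times, that at the higher level, and to keep it otherwise.

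Before any scaling, the median fluorescence of the listed features was no higher at 5x than at 0.1x, and it was lowest at 1x in both dyes. The median Cy3 intensity of the listed features was 184 at 0.1x, 151 at 1x and 180 at 5x. The median Cy5 intensity was 1498 at 0.1x, 1313 at 1x and 1452 at 5x. Over a 50-fold difference in RNA the median ratio of 0.1x to 5x intensity was 1.05 for Cy3, with 118 features higher and 94 lower at 0.1x, and 1.02 for Cy5, with 117 higher and 95 lower. Most listed features were also dim against the dimmest feature of their array. The median Cy3 intensity was 1.77, 1.55 and 1.86 times that of the lowest of the 384 features at 0.1x, 1x and 5x. The median Cy5 intensity was 1.65, 1.45 and 1.33 times. The 10x array was also dim by this measure, at 2.74 times in Cy3 and 1.59 times in Cy5, whereas on the 50x array both dyes were near 15 times. Scanner settings are not given in the sources used here, and their part in these levels was not tested. No listed spot reached the scanner ceiling of 65535 on the 3 arrays. At 0.1x 9 Cy5 spots of 4 unlisted features did, and at 1x 1 Cy5 spot.

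On these 3 arrays, a larger part of the light came from fewer features at lower RNA. The 10 brightest features of each array held 33.2% of the total at 0.1x, 20.7% at 1x and 13.2% at 5x. In Cy3 the 10 brightest held 38.5 ± 2.92% (SD over 4 spot sets) at 0.1x, 25.5 ± 1.62% at 1x and 16.6 ± 1.43% at 5x. In Cy5 they held 29.1 ± 5.53% at 0.1x, 16.4 ± 2.71% at 1x and 9.80 ± 1.66% at 5x. The 3 levels kept this order in both dyes, and the ranges of the 4 spot sets did not overlap between neighbouring levels in either dye. At the other end, the features below the median share of their array held 25.4% of the total at 0.1x, 33.2% at 1x and 39.0% at 5x. The median share was 0.278% at 0.1x, 0.345% at 1x and 0.408% at 5x, so the typical feature lay farthest below the average at 0.1x. The SD over features of log2 share was 0.86 at 0.1x, 0.62 at 1x and 0.45 at 5x, and the difference between 0.1x and 5x was 0.42 ± 0.06 (SD over 4 spot sets).

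**Figure D1:**
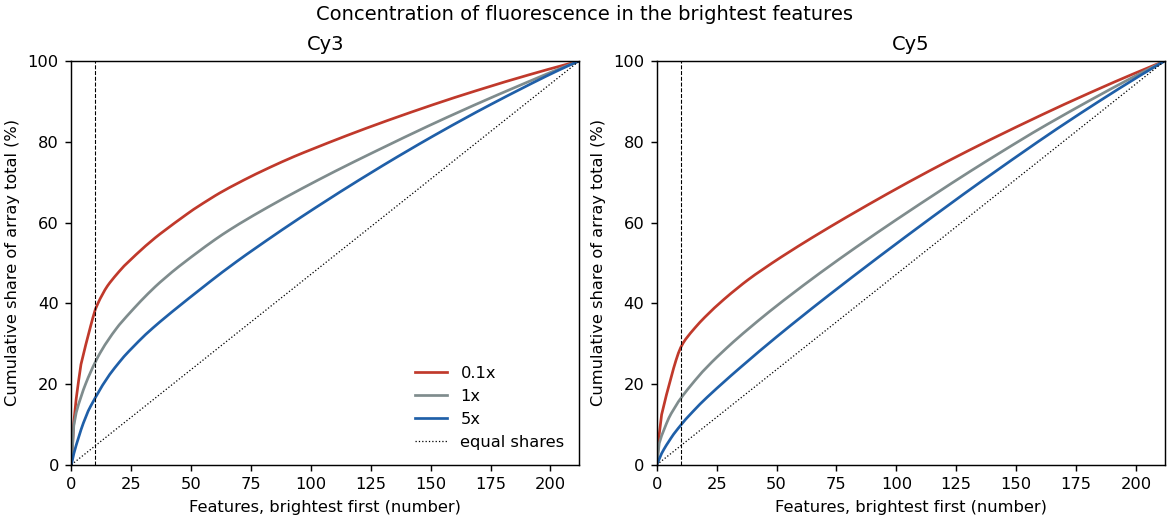
Cumulative share of the array total (%) against the number of features, brightest first, in Cy3 (left) and Cy5 (right), with 1 line per RNA level, a dotted line for equal shares and a dashed line at 10 features. In both dyes the 0.1x line lies above the 1x line and the 1x line above the 5x line, with 38.5%, 25.5% and 16.6% of Cy3 light and 29.1%, 16.4% and 9.80% of Cy5 light in the 10 brightest features.

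Between 0.1x and 5x, 94 of the listed features lost share (44.3%), 11 gained (5.19%) and 107 kept it. The median log2 ratio of 0.1x to 5x was -0.53 ± 0.07 (SD over 4 spot sets), a ratio of 0.692, and single features ranged from 0.377 to 7.15 times. Shares were lower at 0.1x in 179 features and higher in 33. At 2-fold in place of 1.5-fold, 10 features lost (4.72%) and 10 gained (4.72%). Of the 172 unlisted features, on the same totals, 108 had a lower share at 0.1x past 1.5-fold (62.8%) and 11 a higher one (6.4%). The median SD of the log2 ratio over the 4 spots of a listed feature was 0.24, against an SD of 0.64 over the listed features. The first describes single spots, and the second describes means of 4 spots. The SD over features was 1.03 in the 53 brightest features at 1x and 0.23 in the 53 dimmest. The spot SD is a median over all listed features and was not calculated for these groups, so it does not measure their error. The features just inside the limits had 1.87 and 0.665 times their 5x share, and those just outside had 1.498 and 0.670. In these means a gap thus lay at the upper limit and not at the lower one. The log2 ratios beside the gap were 0.90 and 0.58, and the first had an SD over its 4 spots of 0.81, so the gap was within spot error.

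The shares of an array sum to 100%, and a gain in a few features lowers all others. The 11 gaining features together held 33.4% of the total at 0.1x, 18.5% at 1x and 8.68% at 5x. The 94 losing features held 24.4% at 0.1x, 34.9% at 1x and 42.6% at 5x, and the 107 others held 42.1%, 46.6% and 48.7%. The count of losing features rested on this scaling. With each dye of each array scaled to its median, 6 features lost (2.83%), 33 gained (15.6%) and 173 kept their value. With the 11 gaining features left out of the total, an alternative added after the data were seen, 7 features lost (3.3%), 25 gained (11.8%) and 180 kept their share. In unscaled intensity, 72 of the 94 losing features were lower at 0.1x than at 5x in both dyes and 1 was higher in both. All 11 gaining features were higher at 0.1x in both dyes, although the array carried less RNA by a factor of 50. These counts follow in large part from the rule that chose the classes. Summed over the listed features, intensity was higher at 0.1x than at 5x, at 78250 against 47066.5 in Cy3 and 463671 against 328622 in Cy5. Among all listed features, 118 were higher and 94 lower at 0.1x in Cy3, and 117 higher and 95 lower in Cy5. Features lower or higher in both dyes were not counted over all listed features, so these counts by dye are not a like comparison.

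**Figure D2:**
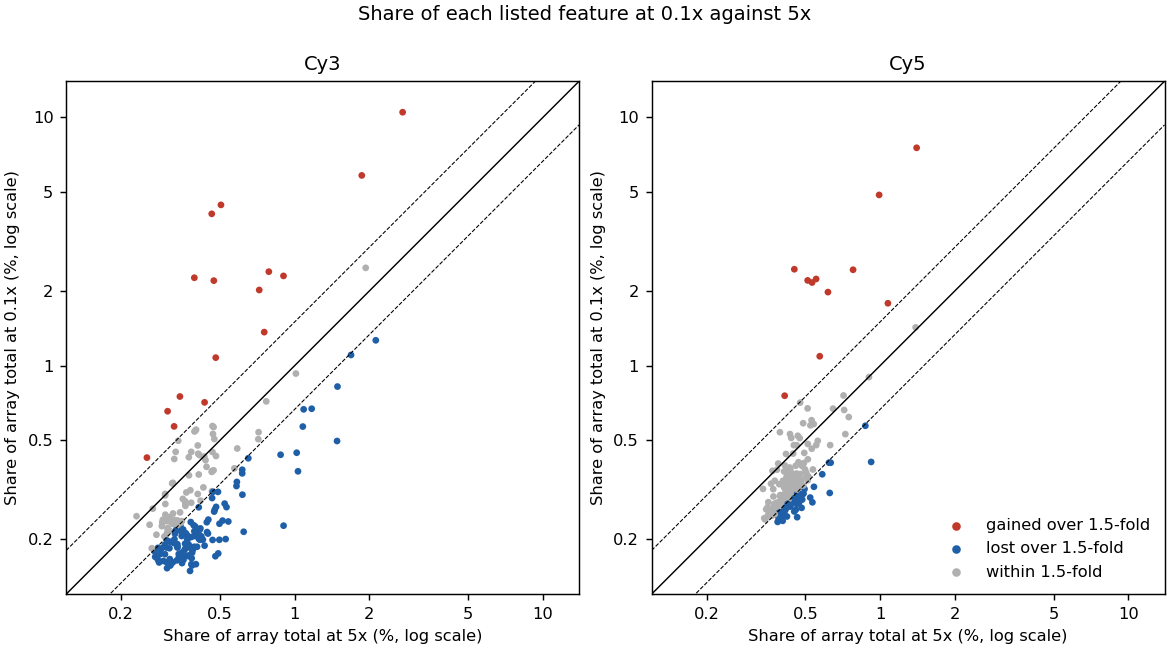
Share of each listed feature at 0.1x (vertical, %, log scale) against 5x (horizontal, %, log scale) in Cy3 (left) and Cy5 (right). The solid line marks equal shares, the dashed lines 1.5-fold either way, and colours follow the dye plotted, with 120 features below and 16 above the lines in Cy3 and 50 below and 11 above in Cy5.

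Most gaining features were already bright at 5x, where 9 of the 11 were among the 53 brightest. Their share ranged from 0.893% to 9.02% at 0.1x with a median of 2.28%, from 0.488% to 7.49% at 1x with a median of 0.985%, and from 0.403% to 2.06% at 5x with a median of 0.645%. At 0.1x they occupied ranks 1 to 13, and at 5x ranks 1 to 115. The share climbed with falling RNA in order over the 3 levels in 10 of the 11, against 18 of all listed features. The 11 were chosen by their gain between 5x and 0.1x, so their ranks and this order follow in part from that choice. In 9 of the 11 the log2 step between 0.1x and 1x was larger than that between 1x and 5x. This also held in 72 of the 94 losing features, and it was not counted over all listed features. The first step is a 10-fold difference in RNA and the second a 5-fold difference. In 10 of the 11 the 0.1x share was the highest of all 5 arrays. That count, too, follows in part from the choice of the 11, and it was not made over all listed features.

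Features 326 and 97 gained most among those past 1.5-fold in both dyes with no overlap of their spots. Feature 326 held 3.27% of the total at 0.1x, 0.957% at 1x and 0.457% at 5x, and stood at rank 4, 12 and 61 on these arrays. Its Cy3 spots had shares of 4.39%, 5.25%, 3.78% and 2.94% at 0.1x, against 0.572%, 0.406%, 0.393% and 0.482% at 5x. Its Cy5 spots had shares of 1.47%, 5.09%, 2.40% and 0.827% at 0.1x, against 0.515%, 0.406%, 0.431% and 0.453% at 5x. The spots at 0.1x all lay above those at 5x in both dyes, but the Cy5 spots at 0.1x differed widely among themselves. The share at 0.1x was 7.15 times that at 5x, 8.83 times in Cy3 and 5.42 times in Cy5. In intensity, feature 326 averaged 3199 at 0.1x and 218 at 5x in Cy3, and 11336 at 0.1x and 1482 at 5x in Cy5.

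Feature 97 held 3.32% of the total at 0.1x, 0.682% at 1x and 0.508% at 5x, at ranks 3, 21 and 37. Its Cy3 spots had shares of 6.64%, 5.72%, 3.46% and 1.94% at 0.1x, against 0.546%, 0.629%, 0.380% and 0.463% at 5x. Its Cy5 spots had shares of 2.46%, 2.25%, 2.55% and 1.55% at 0.1x, against 0.552%, 0.561%, 0.435% and 0.494% at 5x. No spot of either dye overlapped, which the rule for its choice required, and most of the gain lay between 0.1x and 1x. The share at 0.1x was 6.55 times that at 5x, 8.80 times in Cy3 and 4.32 times in Cy5.

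The losing features were spread over the range of brightness at 5x, with a median rank of 99 against 106.5 for all listed features. Their share ranged from 0.193% to 0.598% at 0.1x with a median of 0.241%, from 0.267% to 1.04% at 1x with a median of 0.328%, and from 0.323% to 1.20% at 5x with a median of 0.413%. Of the 94, 5 were among the 53 brightest features at 0.1x, 11 at 1x and 23 at 5x. The share dropped in order over the 3 levels in 93 of the 94, against 150 of all listed features. The 94 were chosen by their fall between 5x and 0.1x, so these counts follow in part from that choice. In 72 of the 94 the step between 0.1x and 1x was the larger, a count not made over all listed features.

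Features 275 and 61 lost most under the same rule. Feature 275 held 0.453% of the total at 0.1x, 1.04% at 1x and 1.20% at 5x, at ranks 38, 10 and 6. Its Cy3 spots had shares of 0.558%, 0.542%, 0.561% and 0.326% at 0.1x, against 2.43%, 0.996%, 1.53% and 0.962% at 5x. Its Cy5 spots had shares of 0.557%, 0.416%, 0.353% and 0.310% at 0.1x, against 1.21%, 0.561%, 1.31% and 0.599% at 5x. All spots at 0.1x lay below those at 5x, in Cy5 by a small margin between the highest 0.1x spot and the lowest 5x spot. The share at 0.1x was 0.377 times that at 5x, 0.335 times in Cy3 and 0.445 times in Cy5.

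Feature 61 held 0.316% of the total at 0.1x, 0.708% at 1x and 0.767% at 5x, at ranks 81, 18 and 15. Its Cy3 spots had shares of 0.181%, 0.207%, 0.273% and 0.244% at 0.1x, against 1.00%, 0.625%, 1.06% and 0.924% at 5x. Its Cy5 spots had shares of 0.437%, 0.356%, 0.448% and 0.384% at 0.1x, against 0.689%, 0.529%, 0.569% and 0.741% at 5x. The groups did not overlap in either dye, which the rule for its choice required. The dyes differed in size, with a ratio of 0.251 in Cy3 and 0.643 in Cy5. Like feature 275, it was among the 21 brightest features at 1x and 5x and not at 0.1x.

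The highest rank did not change hands. A single feature was the brightest at 0.1x, at 1x and at 5x and in each dye, with 9.02%, 7.49% and 2.06% of the total, and was one of the 11 that gained. Its Cy3 spots at 0.1x had shares of 10.2%, 10.3%, 12.1% and 9.36%, against 3.18%, 2.80%, 2.67% and 2.24% at 5x. Its Cy5 spots at 0.1x had shares of 12.3%, 2.03%, 10.8% and 4.99%, against 1.25%, 1.65%, 1.53% and 1.19% at 5x. The spots did not overlap, although the lowest Cy5 spot at 0.1x came close to those at 5x. Feature 226, the second brightest at 5x, held 1.35% of the total at 0.1x, 1.64% at 1x and 1.76% at 5x, at ranks 12, 5 and 2. Its ratio of 0.766 was within 1.5-fold, and its Cy3 spots (1.00% to 1.39% at 0.1x, against 1.24% to 3.69% at 5x) and Cy5 spots (0.709% to 2.20% at 0.1x, against 0.816% to 2.79% at 5x) overlapped.

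Among the features above the median share at 1x, features 107 and 197 had the ratios of 0.1x to 5x nearest to 1, a rule that does not ask for a steady share at 1x. Feature 107 held 0.451% at 0.1x, 0.491% at 1x and 0.458% at 5x, a ratio of 0.985 between 0.1x and 5x. Feature 197 held 0.515% at 0.1x, 0.556% at 1x and 0.503% at 5x, a ratio of 1.02. Its spots varied, with Cy3 shares of 0.809%, 0.345%, 0.336% and 0.304% at 0.1x. The SD of the log2 ratio over the 4 spots was 0.52 for feature 197 and 0.21 for feature 107. A share that differed little between 0.1x and 5x was not a steady rank, as the shares of other features moved past them. Feature 107 stood at rank 39 at 0.1x, 40 at 1x and 60 at 5x, and feature 197 at rank 29, 34 and 38.

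**Figure D3:**
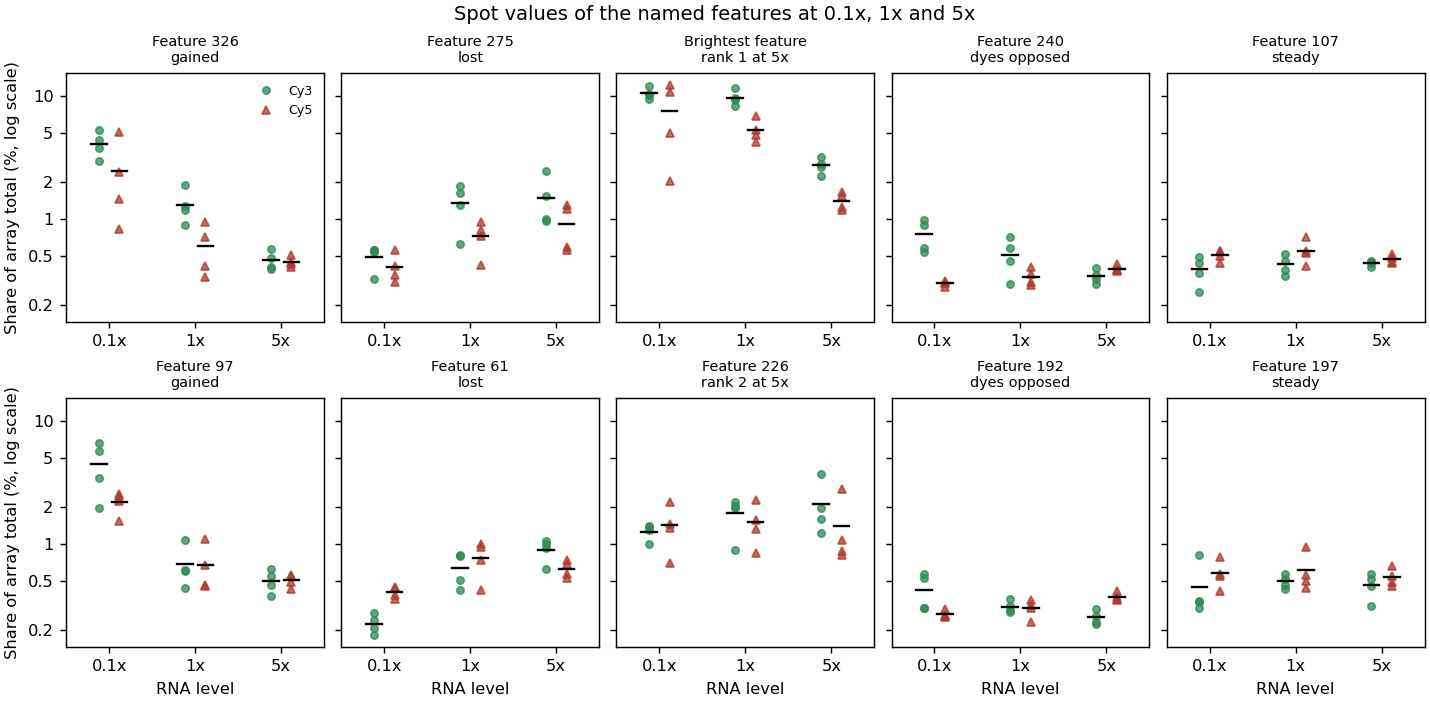
Share of the array total (%, log scale) of each spot of 10 features at 0.1x, 1x and 5x, with circles for Cy3, triangles for Cy5 and black bars for the mean of the 4 spots. The 0.1x spots of features 326 and 97 lie above all 5x spots of the same dye, and those of features 275 and 61 lie below them. The rule that chose these features required this. The brightest feature shows Cy5 spots from 2.03% to 12.3% at 0.1x.

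The same comparison by dye gave more changes in Cy3. In Cy3, 120 features lost share (56.6%), 16 gained (7.55%) and 76 kept it, with a median log2 ratio of -0.67 ± 0.06 (SD over 4 spot sets). In Cy5, 50 lost (23.6%), 11 gained (5.19%) and 151 kept it, with a median of -0.47 ± 0.11. Relative to the median change of the dye, 12 features were lower (5.66%) and 42 higher (19.8%) past 1.5-fold in Cy3, and 1 was lower (0.472%) and 20 higher (9.43%) in Cy5, so the balance of losses and gains turned round in both dyes. The change was larger in Cy3 than in Cy5 in 171 features, and the log2 ratios had an SD over features of 0.77 in Cy3 and 0.57 in Cy5. Spot error was also larger in Cy3, with a median SD of the log2 ratio over the 4 spots of 0.39 in Cy3 and 0.23 in Cy5. In share of the total, where the median log2 ratio was negative in both dyes, the dyes disagreed in size more than in direction. Part of this agreement in direction was the common shift of the shares. Shares were lower at 0.1x in both dyes in 168 features and higher in both in 22, and had opposite signs in 22. Past 1.5-fold in both dyes were 49 losing (23.1%) and 10 gaining (4.72%) features, and no feature passed it in opposite directions. A further 71 features lost share in Cy3 and kept it in Cy5, whereas 1 lost it in Cy5 and kept it in Cy3. Across the listed features the log2 ratios of the dyes had a Pearson r of 0.845 and a Spearman rho of 0.756, a description of values that come from the same slides.

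Taking spots alone, 99 features (46.7%) had all 4 spots at 0.1x below all 4 at 5x in both dyes, and 9 (4.25%) had all 4 above. More features were thus lower in every spot of both dyes than the 49 that had lost 1.5-fold in both. All spots of a dye and array were divided by the same total, however, so this count too rested on the scaling. Features with all 4 spots apart in both dyes, in either direction, numbered 108. With scaling to the median they numbered 24, and with loess 8. Single spot sets gave from 57 to 102 losing features and from 11 to 16 gaining features in the mean of dyes. Features past 1.5-fold the same way in both dyes, 59 with all spots, numbered from 18 to 86 over single spot sets.

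Among features whose shares moved in opposite directions in the 2 dyes, features 240 and 192 had the largest difference between the dyes. Feature 240 had a Cy3 share of 0.751% at 0.1x, 0.514% at 1x and 0.345% at 5x, and a Cy5 share of 0.301% at 0.1x, 0.342% at 1x and 0.396% at 5x. Its 4 spots did not overlap between 0.1x and 5x in either dye, with 0.537% to 0.992% at 0.1x against 0.295% to 0.402% at 5x in Cy3, and 0.281% to 0.313% at 0.1x against 0.376% to 0.432% at 5x in Cy5. The ratio of 0.1x to 5x was thus 2.18 in Cy3 and 0.759 in Cy5. Feature 192 had ratios of 1.68 in Cy3 and 0.720 in Cy5, again with no overlap of spots in either dye (0.303% to 0.567% at 0.1x against 0.223% to 0.2996% at 5x in Cy3, and 0.255% to 0.296% at 0.1x against 0.352% to 0.414% at 5x in Cy5). In Cy5 both were close to the typical listed feature, with log2 ratios of -0.40 and -0.47 against a median of -0.47. Their mean Cy5 intensity before scaling was slightly higher at 0.1x than at 5x, 1395 against 1302 for feature 240 and 1248 against 1230 for feature 192. The lower Cy5 share is thus a fall relative to the array total only. Both features were printed in column 48, at the edge of the 8 rows and 48 columns of the print, and both kept their averaged share within 1.5-fold.

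**Figure D4:**
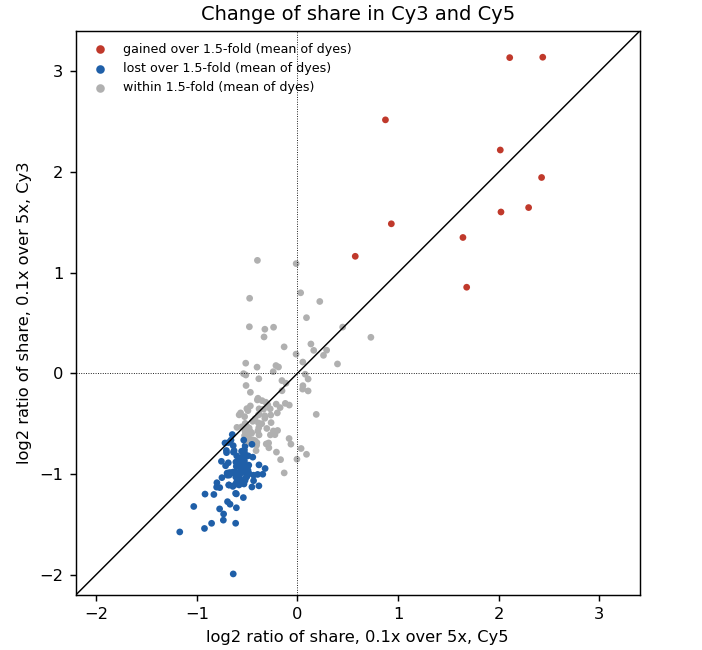
Log2 ratio of share, 0.1x over 5x, of each listed feature in Cy3 (vertical) against Cy5 (horizontal), coloured by the change in the mean of both dyes, with a solid line of equal change and dotted lines at no change. Most points lie at the lower left, where 168 features were lower at 0.1x in both dyes, and 171 features changed more in Cy3 than in Cy5.

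By steps, more features lost share between 0.1x and 1x than between 1x and 5x, which differ 10-fold and 5-fold in RNA, but these counts rested on the scaling to the total. For 0.1x over 1x, 21 features lost share (9.91%) and 9 gained (4.25%), with a median log2 ratio of -0.35 ± 0.04 (SD over 4 spot sets). For 1x over 5x, 3 lost (1.42%) and 8 gained (3.77%), with a median of -0.18 ± 0.04. Relative to the median change, 3 features were lower (1.42%) and 22 higher (10.4%) past 1.5-fold for 0.1x over 1x, and 1 was lower (0.472%) and 12 higher (5.66%) for 1x over 5x. These comparisons share the 1x array. Over the whole series of 3 levels, the share dropped in order with falling RNA in 150 of the listed features and climbed in order in 18.

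Ranks were kept in part. The Spearman rho of the shares over the listed features was 0.593 between 0.1x and 5x, 0.812 between 0.1x and 1x and 0.786 between 1x and 5x. Between 0.1x and 5x it was 0.526 in Cy3 and 0.663 in Cy5. Within an array, 2 of the 4 spots against the other 2 gave a mean rho in Cy3 of 0.857 at 0.1x, 0.771 at 1x and 0.634 at 5x, and in Cy5 of 0.840, 0.845 and 0.755. Pairs of spots compared between the 0.1x and 5x arrays gave a mean of 0.492 (range 0.402 to 0.569) in Cy3 and 0.618 (range 0.560 to 0.677) in Cy5, below every within-array value of that dye at either level. Ranks within an array were least repeatable on the 5x array, where shares lay closest together.

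In the mean of dyes more of the bright end of the order was kept than of the dim end. Of the 53 brightest features at 0.1x, 32 were among the 53 brightest at 5x (60.4%), and of the 53 dimmest 22 were among the 53 dimmest (41.5%). In Cy3 these counts were 30 and 20, whereas in Cy5 they were 35 and 36. Of the 10 brightest 3 were shared. There were 3 features among the 53 brightest at 0.1x that were among the 53 dimmest at 5x, and 3 that went the other way. The rank differed by at least 21 places in 153 features (72.2%) and by at least 53 places in 73, with a median of 35.5 places and a largest difference of 158. The order of the dyes on 1 array agreed more closely than the order of the 0.1x and 5x arrays, with a rho between Cy3 and Cy5 of 0.801 at 0.1x, 0.701 at 1x and 0.788 at 5x.

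Whether a feature gained or lost share went with its brightness at 1x, a level that does not enter the ratio of 0.1x to 5x. In the 53 brightest features at 1x (shares of 0.448% to 7.49%) the median log2 ratio was -0.19, with 11 losing and 11 gaining. In the next 53 it was -0.53, with 25 losing, and in the 53 after them -0.56, again with 25 losing. In the 53 dimmest features (shares of 0.267% to 0.316%) it was -0.68, with 33 losing. All 11 gaining features were thus among the 53 brightest at 1x, which held 56.0% of the total at 0.1x, 46.4% at 1x and 37.0% at 5x. These were also the most varied, with an SD of the log2 ratio of 1.03, against 0.23 in the 53 dimmest. The counts by brightness rested on the scaling too. The total was higher at 0.1x than at 5x in both dyes, so a feature of unchanged intensity has a lower share at 0.1x. How far this accounts for the losses among the dimmer features was not tested. With scaling to the median, 6 of all listed features lost and 33 gained.

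Position on the slide went with the change as well. In columns 43 to 48, with 17 listed features, the median log2 ratio was -0.17, with 0 losing and 1 gaining, whereas the other bands of 6 columns had medians from -0.37 to -0.71. That band had the highest median in each of the 4 spot sets. It was highest in Cy3, at 0.10, and not in Cy5, at -0.40. At the other edge, columns 1 to 6 with 29 listed features had a median of -0.37, or -0.36 in Cy3 and -0.37 in Cy5. There 3 features lost and 4 gained, against 44.3% and 5.19% of all listed features. By row, the median ranged from -0.38 in row 5 to -0.74 in row 6, where 17 of 23 features lost share, against 44.3% of all listed features. The rows at the ends of this order were not the same in every spot set and dye. Position and the identity of the printed cDNA cannot be told apart, because all 4 spots of a feature keep the same row and column within their print field.

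The 10x and 50x arrays shared no slide with the ratio of 0.1x to 5x. Across the listed features the log2 ratio of 0.1x to 5x and that of 50x to 10x had a Spearman rho of 0.480 and a Pearson r of 0.398, so features with a lower share at 0.1x tended to have a lower share at 50x too. Of the 94 features that lost share at 0.1x, 53 had also a lower share at 50x than at 10x by 1.5-fold and 2 a higher one, against 84 lower (39.6%) and 36 higher (17%) among all listed features. Their median log2 ratio of 50x to 10x was -0.67, against -0.35 for all features and 0.17 for the 107 that kept their share. Of the 11 gaining features 3 were higher at 50x and 1 was lower, with a median of 0.06. The order at 0.1x had a rho of 0.688 with the order at 50x and 0.553 with that at 10x, whereas the order at 5x had a rho of 0.492 with 50x and 0.874 with 10x.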

How the data were processed

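Slides were scanned with ScanArray Express and quantified with Imagene by the authors, who deposited the fluorescence intensity of each spot in Cy3 and Cy5 with no background column. The 5 sample tables were identical, and columns were taken by their heading. A second intensity table that the authors deposited lists 212 features, sum-normalized per dye and array and averaged over the dyes. Its columns sum to 249996 to 250008, and recalculation from the spots matched 1057 of 1060 values within 2 units. The negative controls that set the authors' selection are not marked, so it was taken as given.

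Shares, ranks and log2 ratios came from pandas 2.3.3, numpy 2.4.6, scipy 1.17.1 and statsmodels 0.14.6 under Python 3.11.15, with figures by matplotlib 3.10.9. The calls of gain and loss were run on simulated data, where their recovery was required only with scaling to the median. Rank, dye and spot counts were not checked in this way. With 1 array per level no test was run, and the number of arrays limits the precision. Samples were grouped by the concentration in their titles. The alternatives were each dye alone, the median of the spots, the geometric mean of the dyes, the total over 384 features, scaling to the median, subtraction of the lowest feature or of the 5th percentile (values under 1 set to 1), loess (span 0.3, 4 iterations), the deposited table, a 2-fold limit, other rank limits and each spot left out. The named features were the 2 largest gains and losses past 1.5-fold in both dyes with spots apart, the 2 brightest at 5x, the 2 with the dyes most opposed and, above the median share at 1x, the 2 with ratios of 0.1x to 5x nearest to 1. The members and rules were chosen with earlier results of these data known. Of features that gained, no more than 2 numbers are printed. Of the study's other experiments, on rounds of amplification and on blood, nothing was used here.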

Additional observations from a re-analysis of the deposited data

Results flagged for a closer look

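Of the 172 unlisted features, which are outside every total and class of the listed features, 11 (6.4%) had a share at 0.1x above 1.5 times that at 5x, and 108 (62.8%) had one below the inverse of 1.5 times. Their median log2 ratio was -0.64, against -0.53 in the listed features, and the highest was 3.66. Of these 11, 4 had a spot at the scanner ceiling of 65535 at 0.1x or 5x, where a value is only a lower bound. The control features among the unlisted ones are not marked.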

How the results depend on the processing

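Counts and ranks were recomputed under each alternative. Why values moved was not tested. A count was taken as moved where it differed by over 1.5 times, and another value where it differed by over 1 SD over the 4 spot sets.

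Losing features numbered 94, against 50 with Cy5 only, 147 with the total over 384 features and 6 with scaling to the median. They numbered 13 with loess, 10 at 2-fold and 7 with the gaining features left out of the total, which was chosen after seeing the data. With the lowest feature subtracted they numbered 126 and with the 5th percentile subtracted 129, both within the 1.5-times limit. Gaining features numbered 11, against 33 with scaling to the median, 21 with the lowest feature subtracted, 32 with the 5th percentile subtracted and 25 with the gaining features left out of the total. Features that kept their share numbered 107, against 54 with the total over 384 features, 173 with scaling to the median, 65 with the lowest feature subtracted, 51 with the 5th percentile subtracted, 186 with loess, 192 at 2-fold and 180 with the gaining features left out of the total. Features past 1.5-fold the same way in both dyes numbered 59, against 136 with the total over 384 features, 20 with scaling to the median, 120 with the lowest feature subtracted, 127 with the 5th percentile subtracted, 12 with loess and 9 at 2-fold. Features with all 4 spots apart in both dyes numbered 108, against 24 with scaling to the median, 43 with the lowest feature subtracted, 34 with the 5th percentile subtracted and 8 with loess.

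The rank correlation of 0.593 between 0.1x and 5x was 0.526 in Cy3, 0.663 in Cy5 and 0.385 with loess. The difference in the SD of log2 share between 0.1x and 5x, 0.42, was -0.029 with loess, which removes the trend of the ratio with brightness by its construction. Of the 21 brightest features at 5x, 14 were among the 21 brightest at 0.1x, and 73 features moved at least 53 ranks. Leaving out any 1 of the 4 spots moved none of these results by the limits above. The median of the spots, the geometric mean of the dyes and the deposited table, where they were run, moved none either. Without spot 4, features past 1.5-fold the same way in both dyes numbered 83, against 59. No paired analysis was possible because each level had 1 array.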
